A study of Mus musculus with 6 samples.

Results

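The Acsm genes encode the medium-chain acyl-CoA synthetases. The family was taken as the rows of the deposited table whose gene symbol is Acsm1, Acsm2, Acsm3, Acsm4 or Acsm5, which gave 5 genes of 51804 symbols, with 29 annotated transcripts. The estimated counts of the transcripts were summed per gene in each library. Of the 5 genes, 4 held counts and passed the filter on low counts that left 15017 genes for testing, and Acsm4 was at 0 in every library. The family was proposed with an earlier result of these data in view, the low level of Acsm3 in control 2, so that level and the position of control 2 are described here without a test.

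RNA-seq was done on whole kidney of mice, in 6 libraries. By label, 3 were of genotype Ccnb1f/f;Cdh16-Cre (the libraries labelled knockout) and 3 of genotype Ccnb1f/f (the controls), so that floxed Ccnb1 alleles are common to both groups and the Cre transgene is not. Cyclin B1, the product of Ccnb1, activates Cdk1 when cells enter mitosis, and the Cdh16 promoter drives Cre in renal tubular epithelium. The question of the study was the role of this cyclin in ageing and fibrosis of the kidney. Age, strain background and floxed exons are stated in none of the sources used here. Whether replicates came from different mice is not stated either, so every p-value reflects only the scatter of these 6 libraries, part of which may be technical. The extraction text of the labels also speaks of cultured cells, while the tissue label of every sample is kidney.

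Each library held 16061435 to 21261226 estimated counts, of which the Acsm genes took between 0.278% (control 2) and 0.904% (knockout 2). For Ccnb1 itself, knockout 1 to 3 held 18, 15 and 11 counts and control 1 to 3 held 11, 17 and 7. The targeted gene was thus not lower by label, at counts too few to test the labels, and the groups are called by their labels throughout. Whole kidney was the labelled tissue, and markers of the thick ascending limb, distal convoluted tubule, collecting duct and podocytes were present in all libraries (Umod, for example, at 4157 to 4892 CPM, counts scaled to library size). Of 5 liver markers, which whole kidney could also hold, Apoa1 and Cyp2c29 stayed under 1 CPM in every library, Alb stood at 4.305 to 12.7 CPM and Serpina1a at 37.7 to 75.5 CPM. Ttr, the fifth, stood at 94.3 to 321 CPM outside control 2 and at 0.304 CPM in control 2. Against the median of the other 5, control 2 held less than 0.5 times the CPM for 131 and more than 2 times the CPM for 120 of the 11053 genes with a mean of at least 5 CPM. The same counts in the other libraries were 55 to 77 and 36 to 109.

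Acyl-CoA synthetases couple a carboxylic acid to coenzyme A at the cost of ATP, which is the entry step to oxidation, conjugation and lipid synthesis. The medium-chain enzymes work in the mitochondrial matrix, on fatty acids of medium length and on aromatic acids such as benzoate and salicylate, whose CoA esters are then joined to glycine and excreted in urine. Liver and kidney are their main sites, and within the kidney the proximal tubule carries both this conjugation and most of the oxidation of fatty acids. Acsm2 is a widely used proximal tubule gene, and Acsm3 was first known as the SA gene, from its high expression in the kidney of hypertensive rats. Acsm1 is a butyrate-CoA ligase that also activates lipoate, Acsm4 is known from the olfactory epithelium, and Acsm5 is the least studied member.

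All 5 genes lie on the plus strand of chromosome 7 (GRCm38, coordinates of the deposited table), within 268051 bases, with other genes between some of them. The order is Acsm5 (ENSMUSG00000030972, 119519463 to 119545551), Acsm2 (ENSMUSG00000030945, 119554340 to 119600690), Acsm1 (ENSMUSG00000033533, 119607026 to 119662515), Acsm4 (ENSMUSG00000047026, 119690026 to 119714565) and Acsm3 (ENSMUSG00000030935, 119760923 to 119787513). Their coding sequences, from 1722 bases in Acsm1 to 1803 bases in Acsm2, were 62.2% to 66.8% identical between pairs in the GENCODE M21 transcripts. The longest run of identical bases between the main transcripts of any pair was 26 bases (Acsm1 with Acsm2, and Acsm3 with Acsm4). Read length is stated in none of the sources, so how far reads could be divided within the family was not tested.

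Acsm2 and Acsm3 are the members with the highest counts and the largest spread between libraries, and the 250 bases before their annotated starts are shown for that reason (RefSeq, GRCm38.p6, plus strand, 5′ to 3′). The Acsm2 window is chr7:119554090-119554339 and the Acsm3 window is chr7:119760673-119760922. Acsm2 has a further annotated start downstream, whose window (chr7:119561458-119561707) is not shown. ENSMUST00000098084, the transcript of the shown Acsm2 start, carried 34.2% to 43.9% of the gene's counts. Capitals mark matches to any of 5 motifs searched on both strands, which are listed after the sequences.
Acsm2: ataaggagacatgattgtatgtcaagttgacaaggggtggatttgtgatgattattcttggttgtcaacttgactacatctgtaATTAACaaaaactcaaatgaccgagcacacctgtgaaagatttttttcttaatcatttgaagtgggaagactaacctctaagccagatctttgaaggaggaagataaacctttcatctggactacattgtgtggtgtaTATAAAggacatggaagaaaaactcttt
Acsm3: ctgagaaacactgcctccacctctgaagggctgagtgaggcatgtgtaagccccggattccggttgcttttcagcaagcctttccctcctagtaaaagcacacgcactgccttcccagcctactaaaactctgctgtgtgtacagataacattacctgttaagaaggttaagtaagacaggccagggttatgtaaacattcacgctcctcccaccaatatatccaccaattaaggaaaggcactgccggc

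The motifs were the TATA box (TATAAA, in 12.4% of 32817 windows of this length), the steroid receptor half-site (AGAACA, 16.1%), the nuclear receptor half-site (AGGTCA, 14.0%), the HNF1 half-site (GTTAAT, 6.44%) and the HNF4 core (CAAAGTCCA, 0.384%). The Acsm2 window held TATAAA starting 28 bases before the start site and, on the minus strand, GTTAAT starting 166 bases before it. The Acsm3 window and the downstream Acsm2 window that is not shown held none of these letters. The motifs do not overlap in these windows, and a match describes letters only.

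Per length, Acsm2 was the most abundant member in every library. On the deposited FPKM scale (fragments scaled to transcript length and library size), which in these rows uses spliced transcript lengths that match GENCODE M21, Acsm2 stood at 2435, 3261 and 1490 in the libraries labelled knockout and at 3025, 999.7 and 2925 in controls 1 to 3. Its mean of 2356 ± 915 FPKM (SD over all 6 libraries) ranked it 12th of all symbols. Part of this sum, 349 to 1085 FPKM, sat on a transcript of 557 bases, which weighs more per count than the long ones.

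Acsm3 came next, at 421, 617 and 462 FPKM in the libraries labelled knockout and at 531, 54.8 and 359 FPKM in controls 1 to 3. Acsm1 stood at 86.5, 97.99 and 104 FPKM and at 87.1, 79.7 and 127 FPKM, and Acsm5 at 53.2, 59.8 and 63.2 FPKM and at 49.3, 67.2 and 56.7 FPKM, in the same order. The order Acsm2, Acsm3, Acsm1, Acsm5 held in 5 libraries, and over those libraries no range of a member overlapped that of the next. In control 2 Acsm3 was the lowest of the 4, below Acsm1 and Acsm5. The FPKM ratio of Acsm3 to Acsm5 was 6.33 to 10.8 in the other 5 libraries and 0.816 in control 2. Acsm2 stayed at 12.5 to 34.7 times the FPKM of Acsm1. Of the family's FPKM, Acsm2 made up 70.3% (knockout 3) to 84.4% (control 3).

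Acsm4, the olfactory member, was at 0 counts in all 6 libraries. A count of 0 allows up to 3 counts per library, or 0.141 to 0.187 CPM. This limit covers counting error alone, as reads that carry no molecular identifier can be copies of 1 molecule.

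Across libraries, on the TMM-normalised CPM scale, the members spread very differently. Acsm5 was the steadiest, at 144, 162 and 149 CPM in the libraries labelled knockout and at 129, 166 and 150 CPM in controls 1 to 3. The groups overlapped, and the coefficient of variation over 6 libraries was 8.94%. Acsm1 stood at 179, 205 and 209 CPM and at 186, 154 and 268 CPM, with control 3 the highest, control 2 the lowest and a coefficient of variation of 19.2%.

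Acsm2 stood at 5662, 7166 and 3282 CPM in the libraries labelled knockout and at 6806, 2165 and 6511 CPM in controls 1 to 3. Each group thus had 1 library far below its other 2, knockout 3 and control 2, and the coefficient of variation was 39.1%. Acsm3 stood at 1092, 1618 and 1179 CPM against 1436, 133 and 956 CPM. The other 5 libraries lay within 1.69 times of each other, control 2 lay below all of them, and the coefficient of variation was 48.4% with control 2 and 21.3% without it.

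**Figure D1:**
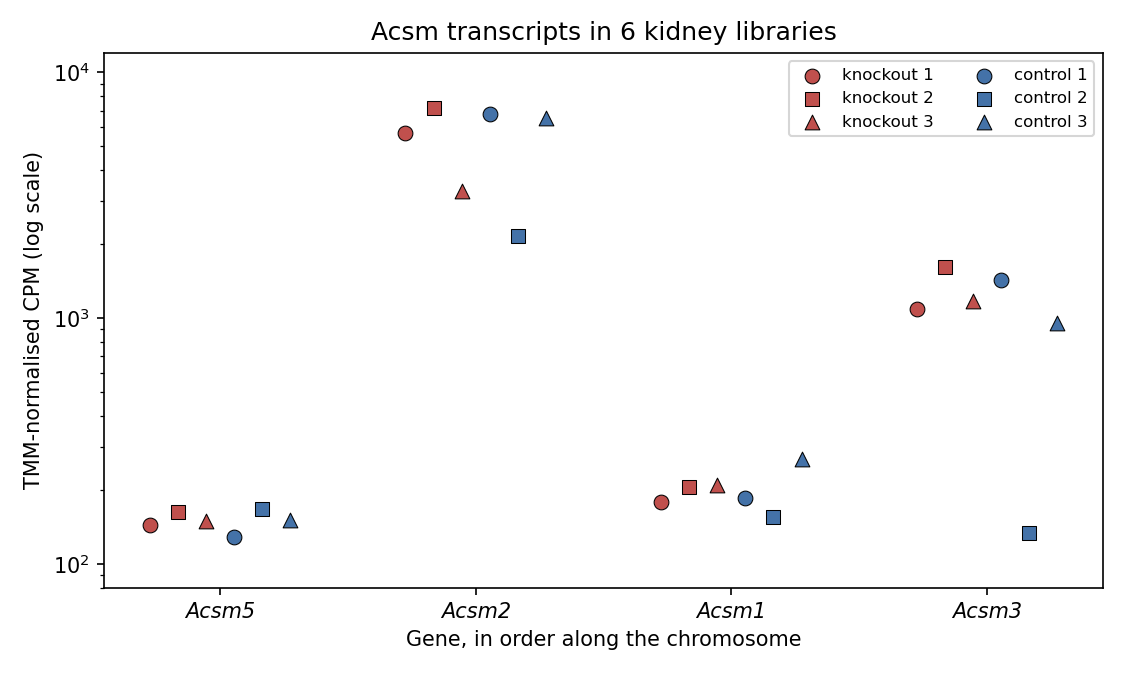
TMM-normalised CPM (log axis) of the 4 detected Acsm genes, with 1 point per library, red for libraries labelled knockout and blue for controls, and the replicate number given by the shape. Acsm5 and Acsm1 stay between 129 and 268 CPM, while the blue square of control 2 lies lowest for Acsm2 (2165 CPM) and far below the rest for Acsm3 (133 CPM).

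Between the groups, no Acsm gene passed the threshold. The log2 fold change of libraries labelled knockout over controls was -0.04 (SE 0.19) for Acsm1, 0.06 (SE 0.44) for Acsm2, 0.62 (SE 0.66) for Acsm3 and 0.03 (SE 0.12) for Acsm5, with an adjusted p of 0.999 for each (quasi-likelihood test of edgeR, 0 of 4 called). Over all 15017 genes 0.0133% were called in either direction, 1 higher (0.00666%) and 1 lower (0.00666%), and the median log2 fold change was -0.01. At an unadjusted p under 0.05 edgeR had 485 of the 15017 genes. It had none of the 4, as did DESeq2 and limma, with lowest values of 0.372, 0.479 and 0.155.

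The 95% confidence intervals show what these libraries can resolve. They ran from -0.25 to 0.31 for Acsm5 and from -0.48 to 0.41 for Acsm1, against -0.95 to 1.06 for Acsm2 and -0.90 to 2.14 for Acsm3. A group difference of 2 times in either direction (1 on the log2 scale) thus lies outside the intervals of Acsm5 and Acsm1 and inside the upper part of those of Acsm2 and Acsm3. Means were 1296 ± 282 against 842 ± 659 CPM for Acsm3 and 5370 ± 1959 against 5161 ± 2598 CPM for Acsm2 (SD, n = 3 each). The two-sided exact permutation test of 3 against 3 libraries, whose smallest possible p is 0.1, gave 0.4 for Acsm3, 0.9 for Acsm2 and Acsm1 and 1 for Acsm5. The groups overlapped for all 4, as they did for all but 8.18% of tested genes.

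The higher mean of Acsm3 by label rested on control 2. Without control 2 its log2 fold change was 0.12 (SE 0.22), and without control 1 it was 1.25 (SE 0.71), with edgeR adjusted p of 0.992 and 0.889. For Acsm2 the sign depended on the libraries kept, with -0.31 (SE 0.28) without control 2, -0.21 without knockout 2 and 0.31 without knockout 3.

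**Figure D2:**
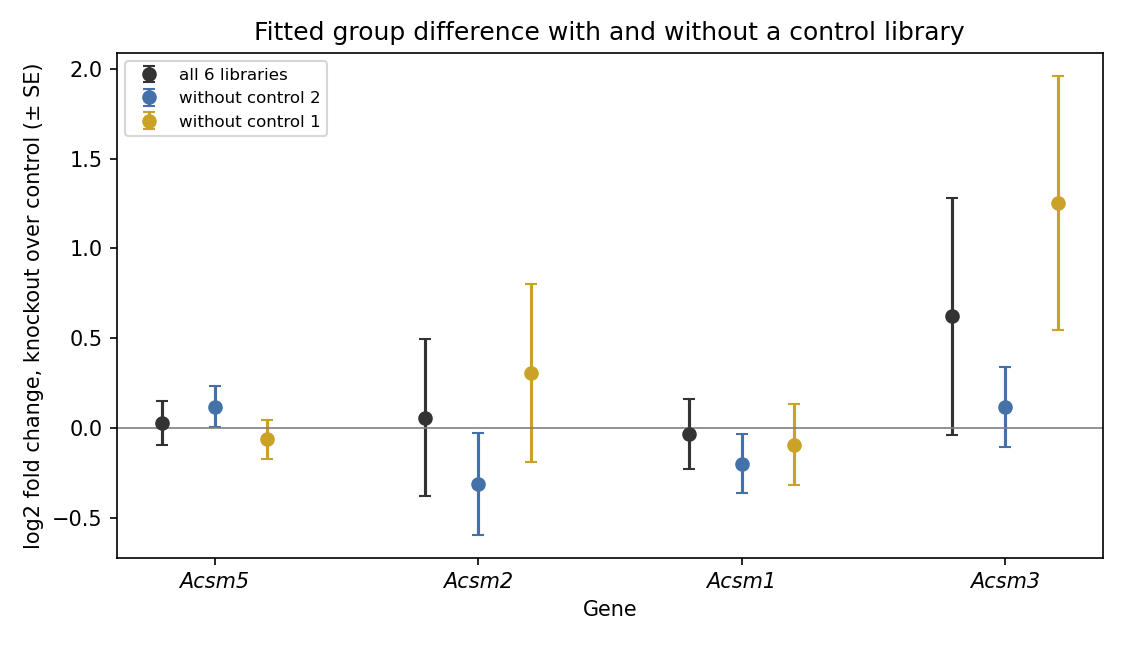
Fitted log2 fold change (libraries labelled knockout over controls) with its SE for each detected Acsm gene, from all 6 libraries (black), without control 2 (blue) and without control 1 (yellow). Acsm3 runs from 0.12 without control 2 to 1.25 without control 1, and Acsm5 stays within 0.12 of 0.

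Set against the median of the other 5 libraries, control 2 held 0.113 times the CPM of Acsm3, 0.333 times that of Acsm2, 0.753 times that of Acsm1 and 1.12 times that of Acsm5. For Acsm3 even the lowest of the other libraries, control 3, was 7.16 times higher, and for Acsm2 the lowest, knockout 3, was 1.52 times higher. Over all tested genes the median of this ratio was 1.01, 2.38% of genes lay under 0.5, and 1.88% lay both under 0.5 and below all of the other 5 libraries. A ratio at or below that of Acsm3 was found in 43 tested genes and at or below that of Acsm2 in 150. These values are the ones the family was chosen on, and nothing is read from their share.

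The low level of Acsm3 in control 2 was shared by its transcripts. In the other 5 libraries 2 protein-coding transcripts, ENSMUST00000063770 and ENSMUST00000106527, carried 51.3% to 53.7% and 41.2% to 43.9% of the gene's counts, and in control 2 they carried 65.1% and 28.9%. Per count of the library, they stood in control 2 at 0.143 and 0.081 times the median of the other 5. These 2 transcripts start within 1 base of each other, so their shares rest on how the authors' estimate divided common reads. The retained-intron transcript ENSMUST00000149766 stood at 0.202 times, from 46.1 counts in control 2. ENSMUST00000106526, which starts further downstream, had 0 counts in control 2 and at most 1.64% of the gene's counts elsewhere.

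For Acsm2, 4 transcripts held 5% or more of the counts in some library. ENSMUST00000167935, of 6738 bases, took 36.4% to 42.1% in the other 5 libraries and 47.6% in control 2. ENSMUST00000098084, which starts at the upstream site whose window is shown above, took 36.4% to 43.9% and 34.2%. Their control 2 ratios were 0.458 and 0.316, and those of ENSMUST00000084647 and ENSMUST00000130583 were 0.282 and 0.390, so the low level in control 2 was present at transcripts of both start regions. In Acsm1 a single transcript, ENSMUST00000047929, carried 99.0% to 99.5% of the counts.

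**Figure D3:**
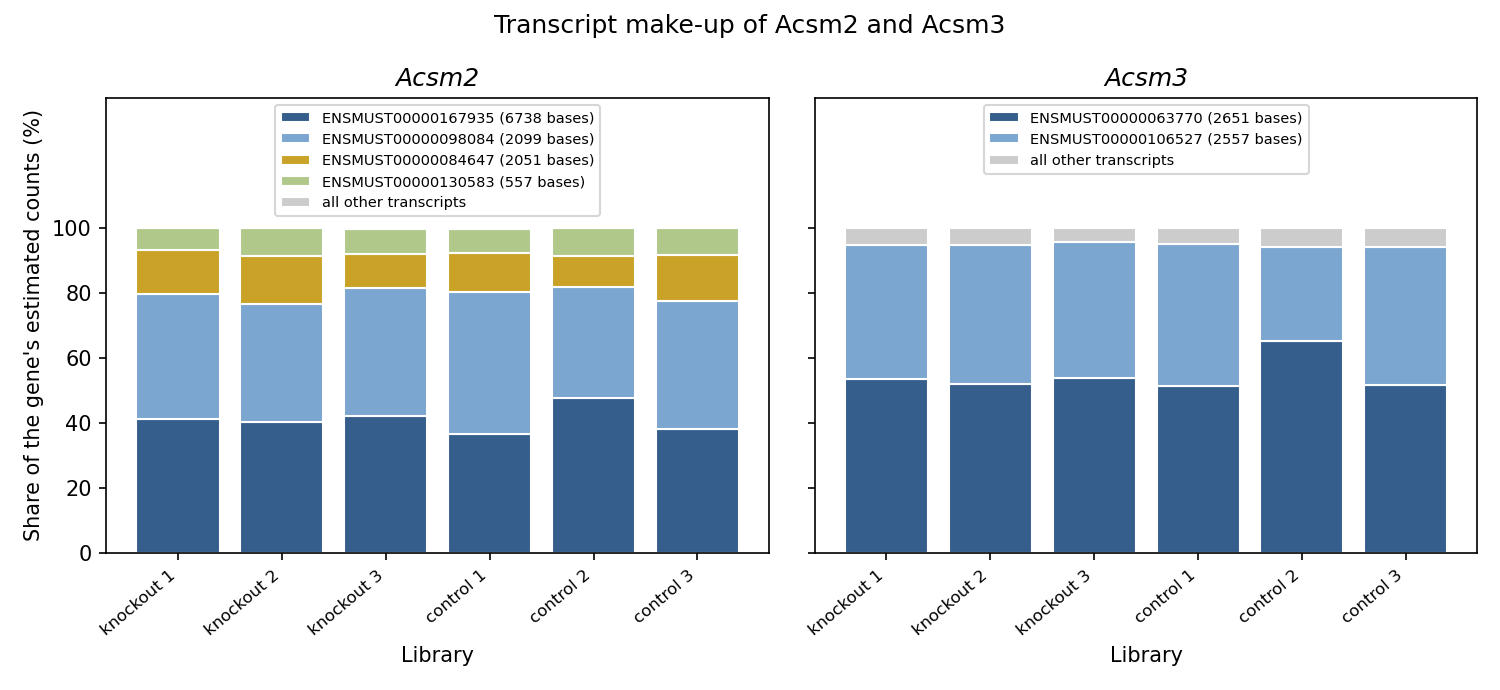
Share of each gene's estimated counts (percent) on its transcripts in the 6 libraries, for Acsm2 (left) and Acsm3 (right). Control 2 has the largest share of the 6738-base Acsm2 transcript (47.6%) and of ENSMUST00000063770 among the Acsm3 transcripts (65.1%).

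Within 500000 bases of the family the table lists 35 genes, of which 16 apart from the Acsm genes were tested. The control 2 ratios of these 16 ran from 0.541 to 2.04, with a median of 1.03. Under 0.5 times the median of the other 5 lay 0 of the 16, near the 2.38% of all tested genes that did. Umod, the uromodulin gene of the thick ascending limb, was at 0.960 and Gp2 at 1.08 on the side of Acsm5. Thumpd1 and Gm5601, which lie between Acsm4 and Acsm3, were at 1.03 and 1.07. None of the 16 was called between the groups by edgeR.

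The lowest of the 16 was Eri2, an exonuclease gene on the opposite strand that overlaps Acsm3 (119768679 to 119794058), with 13.8 CPM in control 2 and 16.4 to 36.2 CPM elsewhere. Gm19950 and Gm45792 overlap Acsm1 on the opposite strand, with control 2 ratios of 0.983 and 2.04, and Pdilt overlaps the start of Acsm5 (ratio 1.61). Strand use in counting is stated in none of the sources. Reads of Eri2, Gm19950 and Gm45792 thus cannot be told apart with certainty from those of the Acsm genes they overlap. Pdilt ends at 119523489, and the Acsm5 transcripts with counts start at 119526208 or later.

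**Figure D4:**
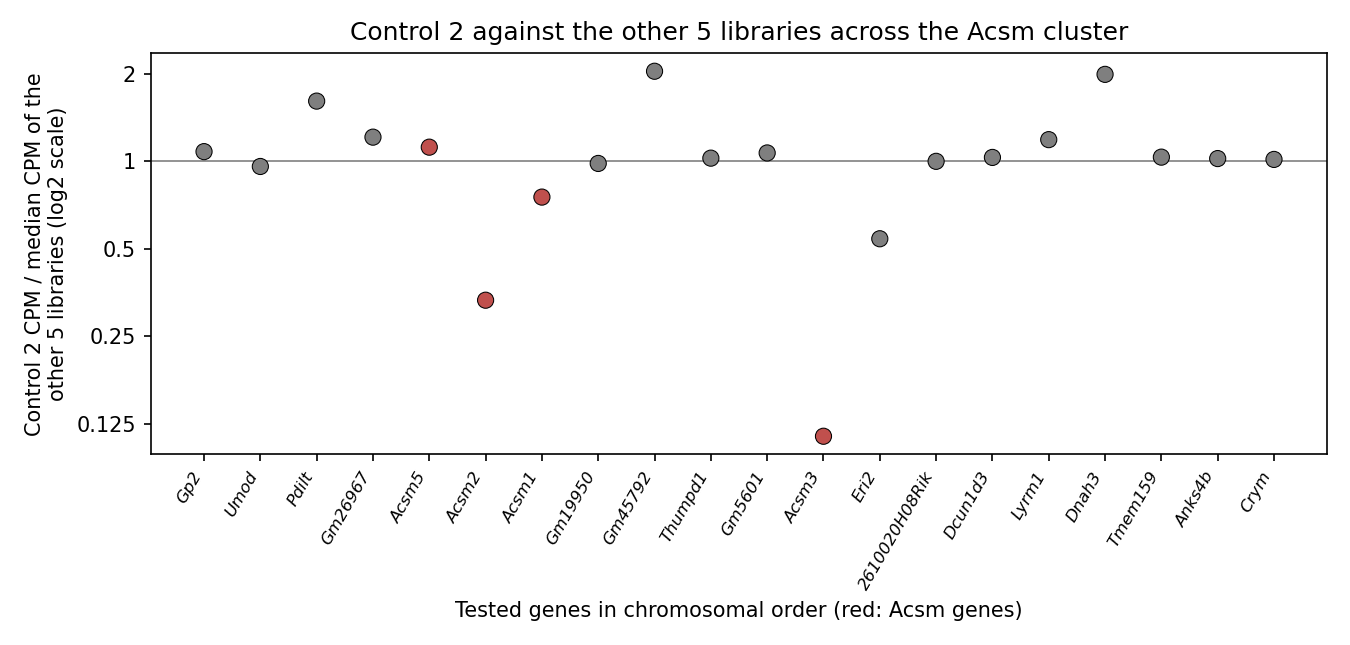
CPM of control 2 divided by the median CPM of the other 5 libraries (log2 axis) for the tested genes within 500000 bases of the Acsm cluster, in chromosomal order, with Acsm genes in red. Acsm3 (0.113) and Acsm2 (0.333) lie below all 16 neighbours, whose lowest value is 0.541 (Eri2).

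Across the 6 libraries the members did not vary as a block. Acsm2 and Acsm3 had a Pearson correlation of log2(CPM + 1) of 0.83, which was 0.30 without control 2, and Acsm3 and Acsm5 had -0.56, which was 0.04 without it. These are descriptions over 6 libraries that share their normalization, and they rest on control 2.

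The genes of most similar pattern to Acsm3, by Pearson correlation over 6 libraries among genes with a mean of at least 5 CPM, were Cdhr5 (0.995), a protocadherin of brush border microvilli, Galc (0.995), a lysosomal galactosidase, and Plod2 (0.994), a collagen lysyl hydroxylase. Slc17a1 (0.994), a phosphate and urate transporter of proximal tubule, Acy3 (0.992), an aminoacylase that removes acetyl groups from mercapturic acids, and Tmem176a (0.991) followed. Mtor (0.991), Slco1a1 (0.990), a transporter of organic anions and steroid conjugates, Hsf2bp (0.990) and Snx17 (0.990) completed the 10. Their drop in control 2 was mostly smaller than that of Acsm3: Slco1a1 was at 0.124 times the median of the other 5, Acy3 at 0.450, Plod2 at 0.556 and the rest between 0.525 and 0.859. Only Mtor stayed among the 10 when control 2 was left out.

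The genes most similar to Acsm2 were Pcca (0.999), a subunit of propionyl-CoA carboxylase, Creld1 (0.997), Actl6a (0.989), Reps2 (0.987), Mtch2 (0.985), a mitochondrial outer membrane protein, and Mmp15 (0.984). B4galt5 (0.984), a galactosyltransferase of glycolipid synthesis, Ndufb4 (0.982), a subunit of respiratory complex I, Gpatch4 (0.980) and Tcaim (0.979) completed the 10, of which 2 stayed without control 2. B4galt5 had the same 2 low libraries as Acsm2, with 120 CPM in control 2 and 167 CPM in knockout 3 against 254 to 359 CPM elsewhere. The lists for Acsm2 and Acsm3 shared 0 genes.

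Other genes that activate acids to CoA esters went both ways in control 2. Of 18 other acyl-CoA synthetases, 15 were tested and 0 were called between the groups (edgeR, DESeq2 and limma, and 0 at an unadjusted p under 0.05 in edgeR), with a median log2 fold change of 0.04. Their median control 2 ratio was 0.959, with 1 of 15 under 0.5 and 1 over 2, against 2.38% and 2.94% of all tested genes. Control 2 lay below the other 5 libraries for 6 of the 15 and above them for 4, against 22.8% and 23.8% of all tested genes. The very-long-chain synthetase and fatty acid transporter Slc27a2, at 4310 to 4937 CPM, had a ratio of 0.959. The acetyl-CoA synthetases Acss1 and Acss2 were at 1.29 and 0.945 and the long-chain synthetase Acsl1 at 0.953. The ratio under 0.5 was that of Aacs, the acetoacetyl-CoA synthetase (119 CPM in control 2, 223 to 416 CPM elsewhere). The ratio over 2 was that of the rare Acsbg1, whose 1.37 CPM in control 2 lay within the range elsewhere (0.504 to 1.45 CPM, median 0.645 CPM).

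Genes that use or remove acyl-CoA, a list of 18 genes of which 16 were tested, had a median log2 fold change of 0.20 by label and a median control 2 ratio of 0.785. None was called by edgeR, DESeq2 or limma, and 2 of 16 (Nudt19, and Acot11, named after its values were seen) had an unadjusted p under 0.05 in edgeR, where 485 of all 15017 genes did. Glyat, which joins acyl groups to glycine downstream of the Acsm enzymes, stood at 628, 634 and 640 CPM in the libraries labelled knockout and at 611, 472 and 593 CPM in controls 1 to 3, a ratio of 0.751 in control 2. Its relative Gm4952 was at 1.37 CPM in control 2 and 3.76 to 7.75 CPM elsewhere, and Glyatl3 had no counts. Nudt19, a hydrolase that cleaves CoA and its esters in peroxisomes of the proximal tubule, stood at 2022, 2141 and 1591 CPM against 1616, 927 and 1272 CPM, with overlapping groups. Its log2 fold change was 0.59, with SE 0.21 and an adjusted p of 0.999 in edgeR. The thioesterases Acot4 and Acot12 had control 2 ratios of 1.05 and 0.769, and Acot3, another thioesterase, was at 34.0 CPM in control 2 and 13.3 to 22.2 CPM elsewhere.

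The genes listed for short- and medium-chain fatty acid oxidation were all tested (23 of 23), and not all of them act on products of the Acsm enzymes. Their median log2 fold change was 0.06, 0 were called by edgeR, DESeq2 or limma, and 3 of 23 (Crot, Cpt2 and Decr1, named after their values were seen) had an unadjusted p under 0.05 in edgeR, against the same 485 of 15017. Control 2 lay below the other 5 libraries for 12 of the 23, where 22.8% of all tested genes did so, but 0 of 23 lay under 0.5 times their median. Acadm, the medium-chain acyl-CoA dehydrogenase, was at 858 CPM in control 2 and 1021 to 1271 CPM elsewhere. Ehhadh, Acat1 and Hadh had control 2 ratios of 0.674, 0.664 and 0.793.

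Markers of the proximal tubule, the known site of these genes in kidney, were taken as an early-segment and a late-segment list. The 12 early-segment genes had a median control 2 ratio of 0.947, with 0 under 0.5. The 12 late-segment genes had one of 0.740, with 2 under 0.5 and 1 over 2. Over all tested genes 2.38% lay under 0.5 and 2.94% over 2. Control 2 lay below the other 5 libraries for 4 early and 7 late genes, and for 22.8% of all tested genes. It lay above them for 1 early and 2 late genes, and for 23.8% of all tested genes. Summed over each list, control 2 held 12267 CPM of the early list (12963 to 15234 CPM elsewhere) and 5382 CPM of the late list (6679 to 8913 CPM elsewhere). Slc34a1, the phosphate transporter, was at 0.747, the endocytic receptor gene Lrp2 at 1.00, Slc4a4 at 0.984 and the organic anion transporter Slc22a6 at 0.656. In the late segment Acy3 was at 0.450 and Slc22a7, another organic anion transporter, at 0.240 (47.4 CPM in control 2, 71.5 to 282 CPM elsewhere). The amino acid transporter Slc7a13 was at 0.665, the flippase gene Atp11a at 0.615 and the water channel Aqp1 at 1.13. Fewer cells of a type and less RNA per cell cannot be told apart in whole tissue.

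For thick ascending limb (5 genes) the median control 2 ratio was 1.02, near the 1.01 of all tested genes. It was 1.18 for distal convoluted tubule (4), 1.37 for collecting duct (5) and 1.30 for podocytes (5). Control 2 was above the other 5 libraries for 5 of 5 collecting duct genes and 4 of 5 podocyte genes, where 23.8% of all tested genes were. Endothelium was at 1.10, stroma at 1.06 and immune cells at 0.672 (5 genes each). Adipocyte genes were at 0.277 (4 genes, all but Fabp4 at or under 22.5 CPM in every library). Of the liver list 3 genes were tested and pointed different ways, with Ttr at 0.0019, Serpina1a at 1.29 and Alb at 1.99. By label, 4 of 5 stroma genes had an unadjusted p under 0.05 in edgeR, where 485 of all 15017 genes did. These were Pdgfrb, Dcn, Acta2 and Col1a1, the last named after its values were seen. The median log2 fold change over the 5 was -0.45, and no stroma gene was called by edgeR, DESeq2 or limma. The part of these cell types in the levels of Acsm2 and Acsm3 was not tested.

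Genes that differ between male and female kidney stood apart in control 2. Of 15 genes listed as higher in male kidney, all tested, 14 had a control 2 ratio, with a median of 0.514. Of these, 4 were under 0.5, where 2.38% of all tested genes were. Control 2 lay below the other 5 libraries for 11, where 22.8% of all tested genes did so. Ratios above 1 were found only for Ugt8a (1.06) and Slc7a8 (1.22), which were named after their values were seen. Slco1a1 was at 68.3 CPM in control 2 and 416 to 855 CPM elsewhere, and Odc1, the first enzyme of polyamine synthesis, at 299 CPM against 710 to 1520 CPM. Cyp4a12a, a fatty acid hydroxylase, was at 144 CPM against 381 to 673 CPM, and the dipeptidase gene Cndp2 at 416 CPM against 1042 to 2388 CPM. Cyp4b1 and Cyp2e1 had ratios of 0.510 and 0.703. Kap, the kidney androgen-regulated protein, was at 8717 CPM in control 2, 16416 and 16590 CPM in controls 1 and 3, and at 0 in the libraries labelled knockout, and was the 1 member called (lower by label, edgeR).

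Of 10 genes listed as higher in female kidney, 9 were tested, with a median control 2 ratio of 3.45 and 5 over 2, where 2.94% of all tested genes were over 2. Cyp4a14, a fatty acid hydroxylase, stood at 280 CPM in control 2 and 11.9 to 57.8 CPM elsewhere, Cyp2a5 at 640 CPM against 78.2 to 112 CPM, and the amino acid transporter Slc7a12 at 65.2 CPM against 2.24 to 13.4 CPM. The prolactin receptor gene Prlr was at 94.6 CPM (15.3 to 94.9 CPM elsewhere) and the transporter gene Abcc3 at 7.39 CPM (1.89 to 3.64 CPM). Cyp2a4, Slc22a19 and Cyp2d9 had ratios of 1.16, 1.00 and 1.52. None was called between the groups by edgeR, DESeq2 or limma, and 0 had an unadjusted p under 0.05 in edgeR. The Y-linked gene Ddx3y was at 61.2 CPM in control 2 and 43.3 to 71.4 CPM elsewhere, and Xist at no more than 9 counts in any library. Any link between the levels of these sex-biased genes and those of the Acsm genes in control 2 was not tested.

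Of 15 genes for nuclear receptors and factors of lipid and sex steroid control, 0 were called between the groups by edgeR, DESeq2 or limma and 1 of 15 (Nr1h4) had an unadjusted p under 0.05 in edgeR, again beside 485 of 15017 over all genes. Their median control 2 ratio was 0.904. Hnf4a, a main regulator of proximal tubule genes, was at 0.741, Rxra at 0.856 and Ghr at 0.947.

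**Figure D5:**
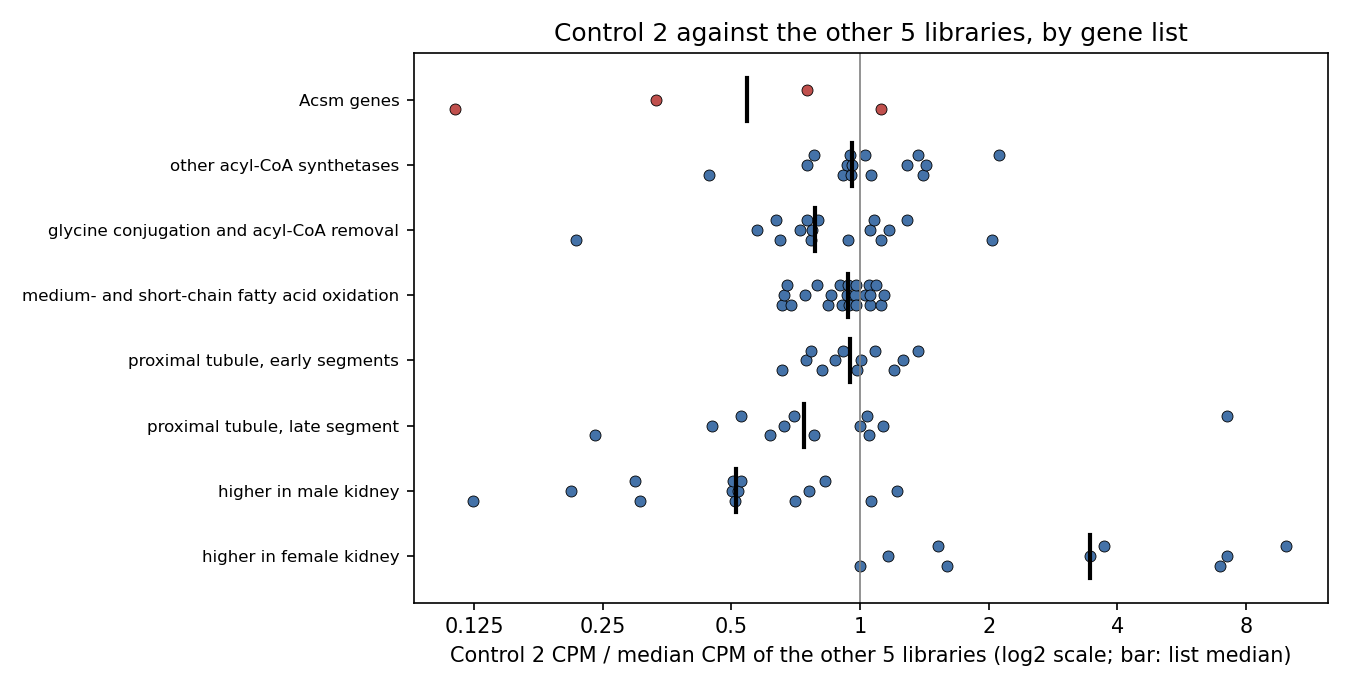
CPM of control 2 divided by the median CPM of the other 5 libraries (log2 axis), with 1 point per tested gene and a bar at each list's median. Genes higher in male kidney centre at 0.514 and genes higher in female kidney at 3.45, while the other acyl-CoA synthetases centre at 0.959. Slc7a12 and Slc22a19 are in both the late-segment and the female list, and Slc22a30 is in both the late-segment and the male list.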

How the data were processed

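The authors deposited estimated counts per transcript, not normalized, next to FPKM values, for 128603 transcripts of 51905 gene IDs in 6 mouse kidney libraries. Software in the submitters' processing notes is Cuffdiff 2.2.1, HISAT2 2.0.1, cutadapt 1.9.1, FastQC 0.10.1 and bcl2fastq 2.17.1.14, with GRCm38 as the build. No source used here states which program made the counts, its strand setting or the library preparation. Groups come from the sample titles. Transcript counts were added up by symbol and rounded, where 97 symbols, none of them Acsm, cover more than 1 gene ID. Groups were compared by the quasi-likelihood test of edgeR 4.0.16 (R 4.3.3) on all 6 libraries, with TMM, the default filter (minimum count 10) and two-sided p-values adjusted by Benjamini-Hochberg over 15017 genes, called at adjusted p under 0.05. The script was tested on simulated data. The standard error is the fold change over the square root of F. CPM values are TMM-normalised counts scaled to library size. The lengths implied by the deposited FPKM of 18 Acsm transcripts matched GENCODE M21 to within 0.0602%.

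Alternatives were DESeq2 1.42.0, median-of-ratios scaling, no filter, sums per Ensembl gene ID, limma 3.58.1 with trend on log2(FPKM + 1) or log2(FPKM + 0.1), the replicate number as a block, and each library left out. Named genes were the family, its tested neighbours, the 10 genes most like Acsm3 or Acsm2, the 10 lowest and 10 highest in control 2 (mean of at least 5 CPM, control 2 outside the range of the other 5), and, per list, the called genes, the 4 most abundant and those with a control 2 ratio under 0.5 or over 2. The ranked lists leave out Gm, Rik and LOC symbols. Values of some genes that this rule names are not reported here. The members and lists were chosen with earlier results of these data known.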

Additional observations from a re-analysis of the deposited data

How the results depend on the processing

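No Acsm gene was called in any of the 13 alternative fits, and the log2 fold change of Acsm3 was above 0 in all of them. Acsm1 turned to 0.00058 and 0.00080 in limma with pseudocounts of 1 and 0.1, and Acsm3 was at 1.17 in both. With each library left out in turn, log2 fold changes ran from -0.20 to 0.22 for Acsm1, -0.31 to 0.31 for Acsm2, 0.12 to 1.25 for Acsm3 and -0.064 to 0.12 for Acsm5. Signs turned for Acsm1 without knockout 1 (0.032) or control 3 (0.22), for Acsm2 without knockout 2 (-0.21) or control 2 (-0.31), and for Acsm5 without knockout 2 (-0.028) or control 1 (-0.064). Over all genes, DESeq2 called 13 higher and 2 lower, edgeR without a filter 3 higher and 2 lower, limma 0 higher with either pseudocount (206 and 201 higher at an unadjusted p under 0.05), and the fits with a library left out 0 to 2 higher and 1 to 4 lower. The causes were not tested. The ratio of Acsm5 in control 2 was 1.21 with scaling by library total, and those of Acsm3 and Acsm2 stayed within 0.102 to 0.119 and 0.325 to 0.364 under 3 other scalings and with each other library left out. Without control 2, 1 of the 10 genes most like Acsm3 and 2 of those most like Acsm2 (an alternative chosen after seeing the data) were found again.

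With the replicate number as a block, edgeR again called 1 gene higher and 1 lower, and Acsm3 stood at 1.04 (adjusted p = 0.999). Deviations from the group means correlated at 0.10, -0.11 and 0.11 between samples of number 1, 2 and 3. Knockout 1 and knockout 3 were most like the control of their own number, and knockout 2 was not. Deviations from a mean of 3 libraries are tied to each other, so they cannot decide whether samples of the same number belong together.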

Other observations

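Outside the Acsm family, the genes furthest below the other 5 libraries in control 2 were mostly of other kinds. They were ranked among 2857 genes with a mean of at least 5 CPM and control 2 below all of the others, of which Acsm3 was the eighth. The transthyretin gene Ttr had 6 counts in control 2 (0.304 CPM) against 94.3 to 321 CPM elsewhere. The histocompatibility genes H2-T23 (0.759 CPM against 47.0 to 94.99 CPM), H2-K1 (7.95 CPM against 140 to 272 CPM), H2-Aa (6.38 CPM against 41.2 to 94.2 CPM) and H2-Ab1 (8.55 CPM against 52.3 to 125.4 CPM) were among them. So were the ribosomal protein genes Rps2 (4.10 CPM against 263 to 597 CPM) and Rps18 (7.80 CPM against 65.7 to 151 CPM), the pseudogene Rpl34-ps1 and the histone gene Hist2h2aa1. Several ribosomal protein and histone genes have near-identical copies, and how reads were assigned among them was not tested.

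Among the genes furthest above the other 5 libraries in control 2 were Cyp4a14, Tgtp2, Slc7a12, Cyp2a5, Tgtp1, Zbtb16, Bhmt, Rps2-ps10 and Ugt1a2, at 6.003 to 9.92 times their median. The interferon-induced GTPase genes Tgtp1 and Tgtp2 stood at 70.1 and 29.3 CPM in control 2 against 5.70 to 12.7 and 2.91 to 5.66 CPM. Zbtb16, a transcription factor gene, stood at 73.4 CPM against 4.20 to 25.6 CPM, and Bhmt, which remethylates homocysteine, at 30.6 CPM against 2.89 to 5.58 CPM.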
